A study of Sus scrofa domesticus with 11 samples.

Results

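The genes described here encode clotting factors, their inhibitors, the enzymes of clot breakdown and the complement proteins, which hepatocytes secrete into plasma. The list named 35 genes, and 30 were found by gene symbol among the 22029 genes of the deposited table, 17 of coagulation and fibrinolysis and 13 of complement. CFB and CFI carry no symbol in that table. They were matched by gene identifier and are given apart, outside the 30. PROZ, C1R and C1S were not analysed here. The rule used gene symbols, with the highest summed raw count deciding where a symbol had several identifiers. It used no difference between the groups.

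Liver RNA was sequenced from Yorkshire piglets at day of life 15. All animals, the controls included, were born preterm and received parenteral nutrition, which is feeding by vein. Libraries came from 5 piglets given SEFA-6179 at 48 mg/kg, a compound for which the labels give only this code. The 6 control libraries came from piglets given MCT, which in nutrition usually stands for medium-chain triglyceride, as a vehicle matched for volume at 3 ml/kg. The series has no group of healthy, term or enterally fed piglets, so each comparison is between piglets under the same feeding. The labels state neither sex nor litter. Each library is a separate sample in the labels and was taken as 1 animal, so p-values measure the spread between these samples.

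Clotting runs through a cascade in which each protease cuts the next from its inactive form, ending with thrombin, which turns fibrinogen into fibrin. Several of these proteases are vitamin K-dependent, since their glutamate residues must be carboxylated before they can bind calcium and membranes. Complement is a parallel cascade of plasma proteins in which C3 is cleaved on a target surface and the terminal components assemble into a membrane pore. The liver makes most of both systems, and some complement genes are induced in inflammation as part of the acute phase response.

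Total counts per library ran from 15974977 to 23416071. All 16 hepatocyte markers on the list were present in every library, with ALB, which encodes albumin, at a mean of 16621 FPKM (fragments scaled to gene length and library depth). In bulk tissue, fewer cells of a type and less RNA per cell cannot be told apart. Earlier results of these data showed MCT replicate 5 and SEFA-6179 replicate 4 to stand apart from the other libraries, and counts of calls were repeated without both.

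None of the 30 clotting and complement genes passed the test for a difference between SEFA-6179 and MCT. With Benjamini-Hochberg adjustment over 13671 genes, edgeR called 0 of the 30 at an adjusted p of 0.05, and 0.219% of all tested genes (0.117% higher and 0.102% lower with SEFA-6179). At an unadjusted p below 0.05 there were 2 members, C4BPA and C9, or 6.67%, against 10.8% of all tested genes. DESeq2 (1.6% called of 15581 genes with an adjusted p) and limma with library weights (0.454% of genes called) also called 0 of the 30. By the authors' deposited table, 0 of the 30 had an adjusted p below 0.05, where 1.16% of all its 22029 genes did. When MCT replicate 5 and SEFA-6179 replicate 4 were both left out, the edgeR count was again 0. In 0 of the 30 genes did the CPM values (counts scaled to library depth) of the 5 SEFA-6179 libraries lie wholly beyond those of the 6 MCT libraries, where 1.49% of all tested genes showed that separation.

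The members lay on both sides of 0, with 16 above and 14 below, where 49.8% of tested genes lay above. Their median log2 fold change was 0.05, and that of all tested genes was -0.0015. For 18 members the log2 fold change was below 0.2 in size, as it was for 49.7% of tested genes. The 95% interval of the log2 fold change stayed within 1 of 0, that is within a doubling or halving, for 27 members. For 14 members it stayed within 1.5-fold either way. Over all tested genes these shares were 69.1% and 35.5%. The members were more abundant than most genes, and no such share was computed for genes of like abundance. C4BPA, C9 and C6 were the 3 members whose interval reached past a log2 fold change of 1.

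**Figure D1:**
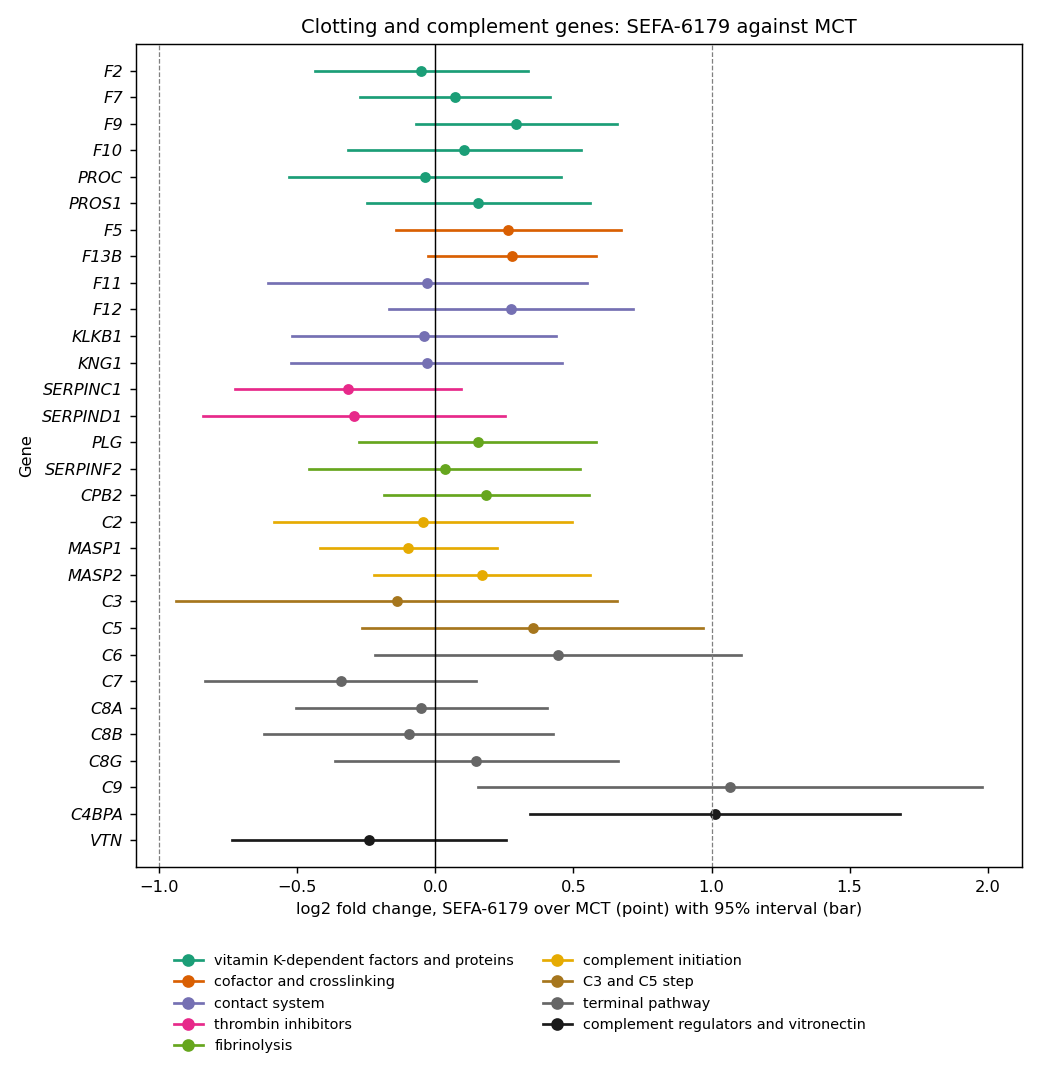
Log2 fold change of SEFA-6179 over MCT for the 30 genes, ordered and coloured by role, with the edgeR estimate as a point and its 95% interval as a bar; dashed lines mark -1 and 1. Most intervals span 0, and those of C4BPA and C9 lie above 0 while neither gene passes after adjustment over all genes.

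Levels per length differed widely between the genes. The deposited FPKM values, averaged over the 11 libraries, ran from 1.05 for C9 to 2171 for VTN, a 2064-fold range, with a median of 147. Over all genes of the table the median was 0.713. VTN encodes vitronectin, an adhesive plasma protein that also restrains the terminal complement complex. It was followed by C3, the central complement component, at 1758 FPKM and SERPINC1, which encodes antithrombin, at 1574 FPKM. These 3 members were among the 44 genes of the table with a mean above 1000 FPKM. PLG, the zymogen of plasmin, came next at 965 FPKM, and then F2, prothrombin, at 558 FPKM. At the low end lay MASP1, a protease of the lectin pathway, at 4.60 FPKM, C2 at 16.4 FPKM and F13B at 21.0 FPKM.

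**Figure D2:**
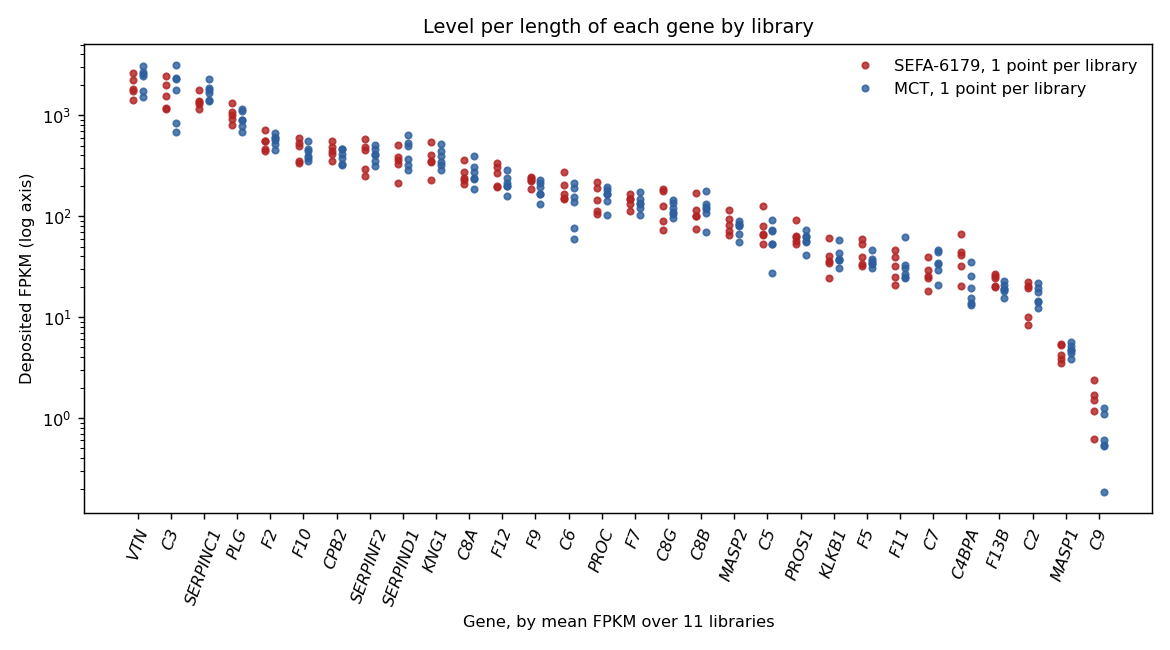
Deposited FPKM of the 30 genes on a log axis, in order of their mean over 11 libraries, with 1 point per library and the groups in separate colours. VTN, C3 and SERPINC1 are at the top, MASP1 and C9 at the bottom, and the points of both groups overlap for every gene.

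Neighbours in this order overlapped across libraries, except C2 with MASP1 and MASP1 with C9. VTN ranged from 1405 to 3070 FPKM and C3 from 684 to 3122 FPKM, so their order was not the same in all libraries. C9 stood below all others, with 0.184 to 2.37 FPKM against 3.52 to 5.72 FPKM for MASP1, the next gene up.

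Among the vitamin K-dependent genes, 4 of 6 lay above 0 and none passed, with edgeR adjusted p between 0.565 and 0.974. F9, coagulation factor IX, was nearest to the threshold. Its levels with SEFA-6179 were 705, 663, 552, 672 and 730 CPM in replicates 1 to 5. With MCT they ran from 392 to 679 CPM with a median of 536 CPM (n = 6). The lowest values were those of MCT replicates 6 and 5, and the ranges overlapped. The log2 fold change was 0.29 ± 0.17 (SE). Prothrombin (F2) was at 2114 ± 422 CPM (SD, n = 5) under SEFA-6179 and 2190 ± 266 CPM (SD, n = 6) under MCT, and the 95% interval of its fold change ran from 0.738 to 1.26.

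F7 and F10 encode factors VII and X, which meet at the start of the common pathway, and lie 2.9 kb apart on chromosome 11. Their log2 fold changes were 0.07 ± 0.16 (SE) and 0.10 ± 0.20 (SE). PROC and PROS1 encode protein C and its cofactor protein S, which switch off activated factors V and VIII. Their log2 fold changes were -0.04 ± 0.23 (SE) and 0.16 ± 0.19 (SE).

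F13B, the carrier subunit of the enzyme that crosslinks fibrin, was at 149, 194, 177, 185 and 144 CPM with SEFA-6179. With MCT it ran from 112 to 164 CPM with a median of 139 CPM. The SEFA-6179 libraries thus reached higher, but replicates 1 and 5 fell inside the MCT range. The log2 difference was 0.28 ± 0.14 (SE), the smallest standard error of the 30 genes, and the edgeR adjusted p was 0.503. F5, the cofactor of factor X, had one of 0.26 ± 0.19 (SE).

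The contact system comprises F12, which starts it on charged surfaces, prekallikrein (KLKB1), factor XI (F11) and kininogen (KNG1), the source of bradykinin. KLKB1, F11 and KNG1 had log2 fold changes between -0.04 and -0.03, and F12 one of 0.27 ± 0.21 (SE). None passed (edgeR adjusted p from 0.68 to 0.984). F11 was at 348 CPM in MCT replicate 5 and between 137 and 185 CPM in the other MCT libraries. With MCT replicate 5 left out, its log2 fold change turned from -0.03 to 0.23.

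Both inhibitors of thrombin lay below 0. SERPINC1 was at 1987, 3071, 2226, 2386 and 2370 CPM with SEFA-6179. With MCT it ran from 2402 to 3955 CPM with a median of 2973 CPM. All SEFA-6179 libraries except replicate 2 were below the lowest MCT value, and replicate 2 was above the MCT median. This gave a log2 fold change of -0.32 ± 0.19 (SE) and 0.579 as the edgeR adjusted p. The 95% interval of its fold change ran from 0.605 to 1.07. SERPIND1, heparin cofactor II, was at 784, 1124, 466, 718 and 838 CPM with SEFA-6179 and from 635 to 1393 CPM with a median of 940 CPM with MCT, so the ranges overlapped. Its log2 fold change was -0.29 ± 0.26 (SE). On the other strand its span overlaps PI4KA, with 987 counts per library on average.

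The fibrinolysis genes showed small differences. PLG had a log2 fold change of 0.15 ± 0.20 (SE). SERPINF2, which encodes the plasmin inhibitor antiplasmin, had one of 0.03 ± 0.23 (SE). CPB2 encodes a carboxypeptidase that removes plasminogen binding sites from fibrin, and had one of 0.18 ± 0.17 (SE). The edgeR adjusted p of the 3 ranged from 0.756 to 0.978.

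C4BPA gave the smallest p of the 30 genes. It encodes the alpha chain of C4b-binding protein, a soluble inhibitor of the classical and lectin pathways. It lies on chromosome 9 from 67726154 to 67829220 in the coordinates of the deposited table, for which the labels name no build. C4BPA was at 294, 228, 473, 146 and 316 CPM in SEFA-6179 replicates 1 to 5. In MCT replicates 1 to 6 it was at 108, 137, 250, 181, 96.2 and 94.3 CPM. SEFA-6179 replicates 1, 3 and 5 were above every MCT library, while replicates 2 and 4 were within the MCT range.

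Mean C4BPA levels were 291 ± 121 CPM (SD, n = 5) under SEFA-6179 and 144 ± 61.0 CPM (SD, n = 6) under MCT. C4BPA thus had a log2 fold change of 1.01 ± 0.31 (SE), a 2.02-fold difference with a 95% interval from 1.27-fold to 3.21-fold. It did not pass over all genes, with an edgeR adjusted p of 0.229. Over the alternatives its adjusted p ran from 0.0577 by DESeq2 to 0.449 by edgeR without SEFA-6179 replicate 5. The authors' deposited table gave C4BPA an adjusted p of 0.0535. Without SEFA-6179 replicate 3, the highest library, the log2 fold change was 0.77.

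C4BPB, the beta chain through which C4b-binding protein holds protein S, lies 370 bases from C4BPA on the same chromosome. It was not a member, and was at 148 ± 32.0 CPM (SD, n = 5) under SEFA-6179 and 112 ± 16.2 CPM (SD, n = 6) under MCT. Its log2 fold change was 0.40 ± 0.16 (SE), with an edgeR adjusted p of 0.372. By deposited FPKM, the ratio of C4BPA to C4BPB was 0.65, 0.352, 0.725, 0.363 and 0.633 in the SEFA-6179 libraries. With MCT it ran from 0.26 to 0.486. The ratio was above the MCT range in SEFA-6179 replicates 1, 3 and 5, the libraries with the most C4BPA. These ratios were computed after the values were seen and were not tested.

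Markers of the acute phase response were given beside C4BPA because hepatocytes induce them together in inflammation. Of 13 genes on that list 8 were tested, among them the fibrinogen genes FGB and FGG of the clotting list. All 8 lay above 0 (median log2 difference 0.61), and 0 passed by edgeR. At an unadjusted p below 0.05 there were 2, where the share over all tested genes was 10.8%. By mean FPKM the most abundant were FGG (3232) and FGB (2757), with LBP next (247), so their sum is mainly one of fibrinogen. The summed level of the 8 genes was 72447 CPM in SEFA-6179 replicate 3, the library highest for C4BPA. It was between 22552 and 27612 CPM in the other SEFA-6179 libraries. With MCT it ran from 16311 CPM, in replicate 6, to 36223 CPM. MCT replicate 6 was also the lowest library for C4BPA. Not all libraries followed this order. MCT replicate 2, with the summed level of 36223 CPM, had C4BPA at 137 CPM. SEFA-6179 replicate 1, with 22552 CPM, had C4BPA at 294 CPM. MCT replicate 3, with 25112 CPM, had the highest C4BPA of the MCT libraries, at 250 CPM. The part of the acute phase state in the C4BPA values was not tested.

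The terminal components build the membrane pore, with C5b, C6, C7 and C8 as its base and C9 as its ring. Of 6 terminal genes 3 lay above 0 and 0 passed. C9 was at 3.69, 5.37, 7.50, 1.97 and 4.80 CPM with SEFA-6179 and at 1.64, 3.94, 3.51, 1.71, 1.91 and 0.585 CPM in MCT replicates 1 to 6. SEFA-6179 replicates 2, 3 and 5 were above every MCT library, replicate 1 was within the MCT range, and replicate 4 was near the MCT median of 1.81 CPM. C9 differed by 1.07 ± 0.43 (SE) on the log2 scale, with an edgeR adjusted p of 0.365. Over the alternatives the adjusted p ran from 0.229 to 0.568.

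C9 rested on few reads, with 10 to 145 counts per library. Its span on chromosome 16, from 24525394 to 24588030, lies inside that of DAB2 on the same strand, an endocytic adaptor gene with a mean count of 2533. DAB2 was at 171 ± 39.5 CPM (SD, n = 5) under SEFA-6179 and 108 ± 13.8 CPM (SD, n = 6) under MCT. DAB2 had a log2 difference of 0.65 ± 0.17 (SE), with 0.15 as its edgeR adjusted p. DESeq2 called DAB2 higher with SEFA-6179 at an adjusted p of 0.0276, the lowest over the alternatives, which reached 0.336. The authors' deposited table gave DAB2 an adjusted p of 0.0256. Whether reads of DAB2 were counted for C9 was not tested. By deposited FPKM, C9 was between 0.001 and 0.0104 times C8A in the 11 libraries.

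C6 was at 604, 445, 818, 452 and 499 CPM with SEFA-6179 and from 179 to 644 CPM with a median of 431 CPM with MCT. The lowest values, 225 and 179 CPM, were those of MCT replicates 5 and 6. C6 had a log2 fold change of 0.44 ± 0.31 (SE). C7 lies 70.1 kb from C6 and went the other way, at 201, 91.7, 149, 123 and 131 CPM with SEFA-6179. With MCT it ran from 106 to 236 CPM with a median of 171 CPM, and the ranges overlapped. The log2 fold change of C7 was -0.34 ± 0.23 (SE). The edgeR adjusted p was 0.649 for C6 and 0.63 for C7.

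Stromal cells are a further known source of C7. Of 9 tested stellate cell and fibroblast markers 8 lay below 0, with a median log2 fold change of -0.14. By edgeR 0 passed, and 5 were at an unadjusted p below 0.05, where the share over all tested genes was 10.8%. The summed level of these markers ran from 551 to 888 CPM with SEFA-6179 and from 726 to 1089 CPM with MCT. No marker of that list was at 0 in all libraries, and its part in the C7 values was not tested.

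C8, part of the base of the pore, has 3 chains. Their log2 fold changes were -0.05 ± 0.21 (SE) for C8A, -0.10 ± 0.24 (SE) for C8B and 0.15 ± 0.24 (SE) for C8G. C8A and C8B lie 6.3 kb apart on chromosome 6, and by deposited FPKM their ratio was 2.38 ± 0.243 (SD, n = 5) under SEFA-6179 and 2.28 ± 0.214 (SD, n = 6) under MCT. The ratio of C8A to C8G, which lies on an unplaced scaffold in the table, varied far more, from 1.22 to 4.93.

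**Figure D3:**
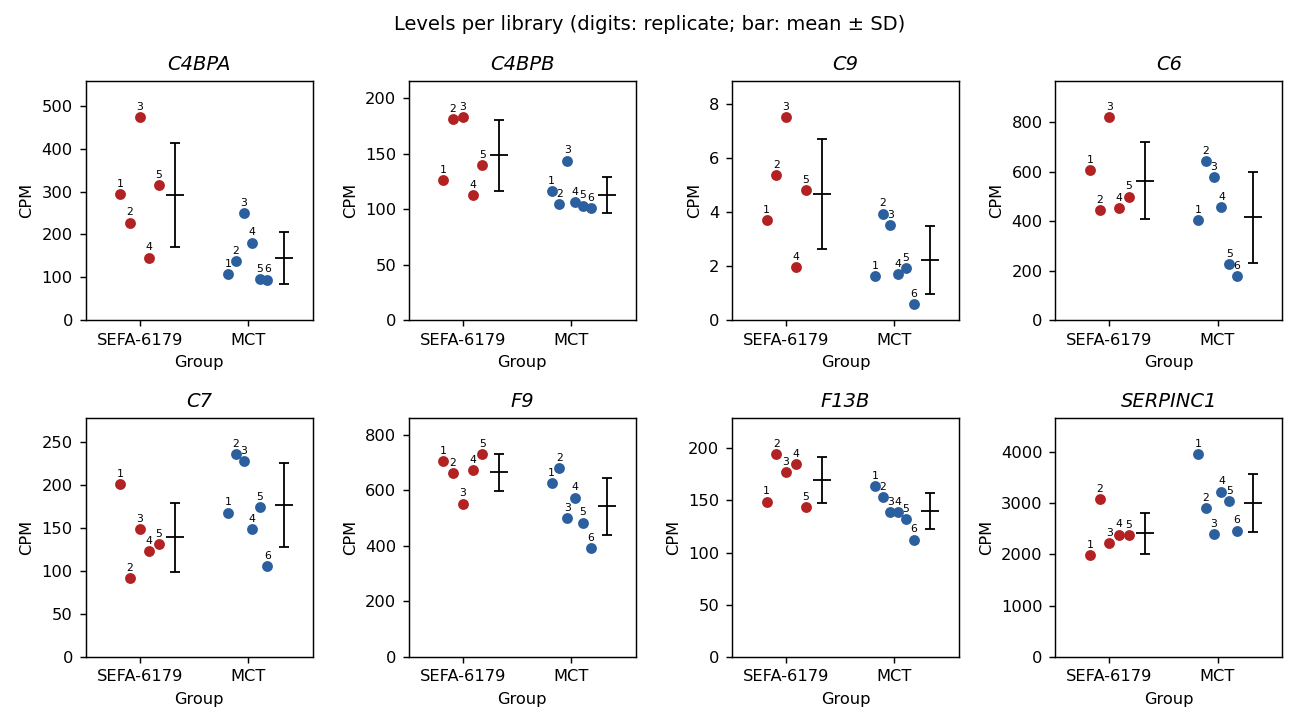
CPM of 8 genes in each library, with digits for the replicate and bars for mean ± SD (n = 5 SEFA-6179, n = 6 MCT). For C4BPA and C9 SEFA-6179 replicate 3 is the highest library and replicate 4 lies within the MCT values, and the groups overlap in all 8 panels.

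C3 had the widest spread of the abundant members. It was at 10560, 8284, 13015, 6081 and 6267 CPM with SEFA-6179 and from 3647 to 16620 CPM with a median of 10698 CPM with MCT. C3 differed by -0.14 ± 0.37 (SE) on the log2 scale, and the 95% interval of its fold change ran from 0.521 to 1.58. C5, the precursor of the anaphylatoxin C5a and of C5b, had a log2 fold change of 0.35 ± 0.29 (SE). CFB, the protease of the alternative pathway, was given apart because the table has no symbol for it. It was at 572 ± 150 CPM (SD, n = 5) under SEFA-6179 and 757 ± 258 CPM (SD, n = 6) under MCT, and its log2 difference was -0.40 ± 0.27 (SE), with an edgeR adjusted p of 0.63. CFI, which inactivates C3b and C4b, had a log2 difference of 0.09 ± 0.19 (SE).

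Of the initiating proteases, MASP1 was at 72.2, 74.8, 48.8, 58.0 and 52.9 CPM with SEFA-6179 and from 52.7 to 78.4 CPM with a median of 64.7 CPM with MCT, so the ranges overlapped. Its log2 fold change was -0.10 ± 0.15 (SE). MASP2, which cleaves C4 and C2, had one of 0.17 ± 0.18 (SE), and C2, the protease of the classical convertase, one of -0.05 ± 0.25 (SE). The span of C2 overlaps that of CFB on the same strand, and how reads of the shared stretch were counted is not known. Of the 30 members 14 overlap another gene of the table, 7 of them on the opposite strand only.

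VTN was at 4962, 7506, 4012, 5240 and 6427 CPM with SEFA-6179 and from 4389 to 8675 CPM with a median of 7175 CPM with MCT. Only SEFA-6179 replicate 3 was below the MCT range. VTN differed by -0.24 ± 0.23 (SE) on the log2 scale, with an edgeR adjusted p of 0.762.

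At the median, libraries of the same group differed in these genes as much as in all tested genes, and slightly more than in genes of like or higher abundance. The median within-group SD was 0.374 on the log2 CPM scale for the members and 0.374 for all tested genes, and 0.343 for the 788 genes of like or higher abundance. Together the 30 genes took 3.47% ± 0.448 (SD, n = 5) of all counts with SEFA-6179 and 3.86% ± 0.754 (SD, n = 6) under MCT. The spread was not the same in all genes. Lowest were F13B, F2, F7 and CPB2, with within-group SDs of 0.189, 0.228, 0.232 and 0.233. Highest were C9, C3, C6 and C4BPA, with 0.826, 0.732, 0.606 and 0.591. It also differed within a role, as between the initiating proteases MASP1 (0.234) and C2 (0.492).

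SEFA-6179 replicate 2 was the highest of its group for 18 of the 30 genes, among them F2, F7, F10, PROC, PLG, C8A and VTN. SEFA-6179 replicate 3 was the highest for 8, all of complement: C2, MASP2, C3, C5, C6, C8G, C9 and C4BPA. That library was at the same time the lowest of its group for 7, namely F9, F11, KLKB1, KNG1, SERPIND1, MASP1 and VTN. ALB took 4.24% of the counts in SEFA-6179 replicate 3 but between 9.05% and 11.6% in the other SEFA-6179 libraries. This was not particular to that library, since ALB took 4.04% in MCT replicate 3. The other MCT libraries had between 7.96% and 11.3%. The part of these library differences in the group comparison was not tested.

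In the MCT group, replicate 6 was the lowest for 17 genes, including C3, C5, C6, C7, C8A, C8B, C9 and C4BPA. Replicate 1 was the highest for 13, including F2, F7, F10, SERPINC1, SERPIND1 and VTN. Relative to each gene's mean over the 11 libraries, the median member was 0.37 higher on the log2 scale in SEFA-6179 replicate 2. In MCT replicate 6 the same value was -0.34. The other libraries lay between -0.15 and 0.14.

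**Figure D4:**
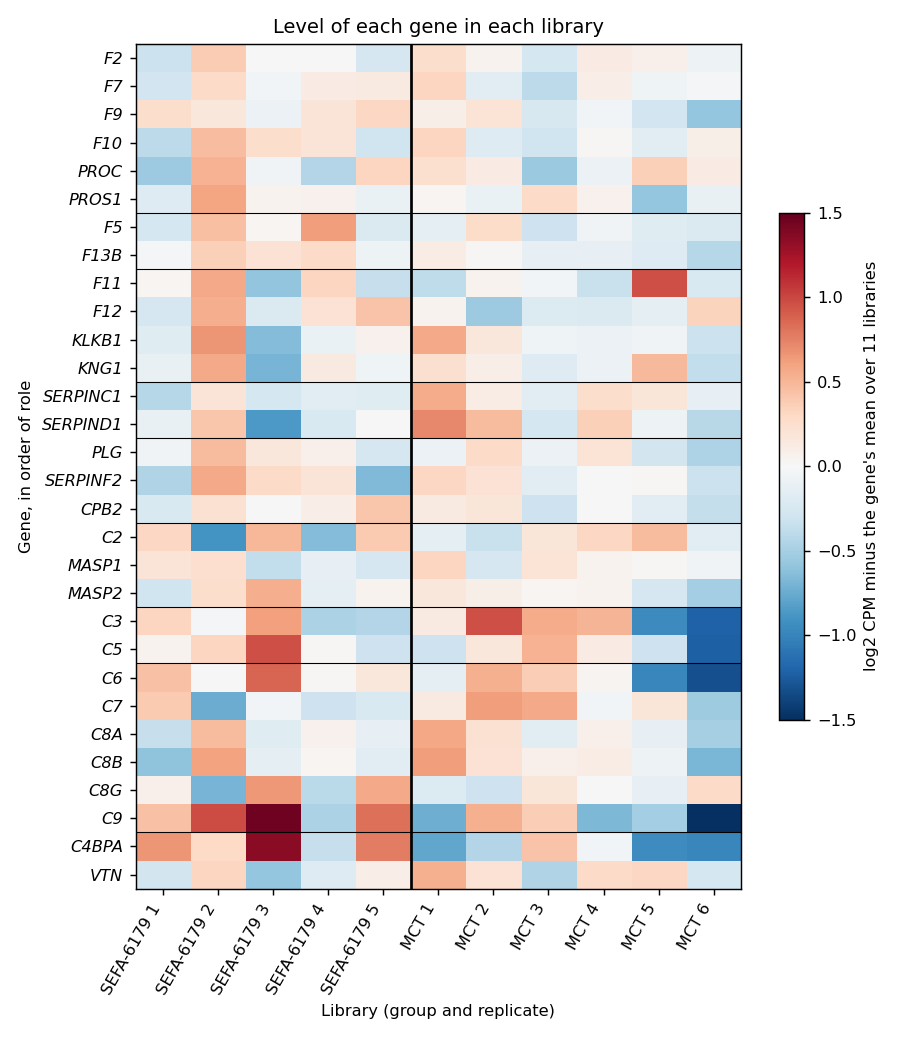
Log2 CPM of the 30 genes minus each gene's mean over 11 libraries, with genes in order of role, libraries in columns and the line between groups; the colour scale ends at 1.5 either way. SEFA-6179 replicate 2 is high across most clotting genes, SEFA-6179 replicate 3 is high for several complement genes, and MCT replicate 6 is low for C3, C5, C6, C9 and C4BPA.

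Of 50 further genes of clotting and complement on the list, 40 were tested, and 0 passed by edgeR, 0 by DESeq2 and 0 by limma. By edgeR 3 were at an unadjusted p below 0.05, where the share over all tested genes was 10.8%. Of the 40, 25 lay above 0 and 15 below, with a median log2 fold change of 0.11. The smallest p among those above 0 were those of C4BPB, of VWF, which encodes the endothelial carrier of factor VIII, of TFPI, the inhibitor of tissue factor, and of MCFD2, a cargo receptor for factors V and VIII. VWF was at 52.4 ± 7.94 CPM (SD, n = 5) under SEFA-6179 and 35.8 ± 14.4 CPM (SD, n = 6) under MCT, with an edgeR adjusted p of 0.397. All 9 tested endothelial markers, VWF among them, lay above 0 with a median log2 fold change of 0.36. By edgeR 0 passed, and 3 were at an unadjusted p below 0.05, against 10.8% of all tested genes. TFPI was at 1.25 ± 0.712 CPM (SD, n = 5) under SEFA-6179 and 0.598 ± 0.279 CPM (SD, n = 6) under MCT, on 7 to 39 counts per library, with an edgeR adjusted p of 0.408. The log2 fold change of MCFD2 was 0.33 ± 0.16 (SE).

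Below 0, the smallest p were those of SERPINE2, a protease inhibitor that also blocks thrombin (log2 fold change -0.61 ± 0.29 SE), TFPI2 (-0.40 ± 0.22 SE), CFD, the activator of factor B (-0.36 ± 0.22 SE), and HRG, histidine-rich glycoprotein (-0.59 ± 0.48 SE). The edgeR adjusted p of these 4 genes ran from 0.481 to 0.705. C1QA, C1QB and C1QC, the chains of C1q that macrophages make, had log2 fold changes of 0.86 ± 0.71 (SE), 0.65 ± 0.76 (SE) and 0.73 ± 0.72 (SE). None of the 3 kept its sign over the alternatives, whose lowest log2 fold changes were -0.0393 for C1QA, -0.38 for C1QB and -0.21 for C1QC. Summed macrophage markers, which include C1q, were lowest in SEFA-6179 replicate 4, at 842 CPM, and ran from 1414 to 3548 CPM in the other 10 libraries. All 7 tested cholangiocyte markers lay below 0, with a median log2 difference of -0.995. Their summed levels were 37.8 to 75.6 CPM under SEFA-6179 and 54.0 to 136 CPM under MCT. By edgeR 0 passed, and 4 were at an unadjusted p below 0.05, against 10.8% of all tested genes. The part of cholangiocytes in the values of the 30 genes was not tested.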

How the data were processed

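Liver RNA libraries of 5 SEFA-6179 and 6 MCT piglets were compared from a table of raw read counts, FPKM values, a normalized signal and a comparison with log2 fold changes and p-values, all deposited by the authors, per the file headers. The signal is the deposited count divided by 1 factor per library. Per the submitters' processing notes, the tools were DESeq2 1.20.0, featureCounts 1.5.0-p3, HISAT2 2.0.5 and StringTie 1.3.3b. No source used here states the build, annotation or strand setting, so reads of overlapping genes cannot be told apart by strand.

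The count model was edgeR 4.0.16 (R 4.3.3) fitted to all 11 libraries, with filterByExpr at a minimum count of 10, TMM scaling, robust quasi-likelihood fits, two-sided quasi-likelihood tests and Benjamini-Hochberg adjustment over all tested genes at 0.05. All 30 members passed that filter. CPM values use the TMM-scaled totals. Within-group SDs are of log2 CPM with a prior count of 2, with both groups pooled. Levels between genes were compared by deposited FPKM only. Alternatives used DESeq2 1.42.0 and limma 3.58.1. The fit was tested on simulated counts, with 100 genes changed by a log2 of 1 and 100 by 2. It recovered 52 of the first and 81 of the second, with 7 false among 140 calls. Many differences of 1 on the log2 scale would thus be missed. No 2 libraries agreed within sampling noise (chi-square per degree of freedom at least 45.7).

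The members, lists and alternatives were chosen with earlier results of these data known. Values by library are given for the 5 members with the smallest p on each side of 0 and for the members highest and lowest in FPKM, with the 6 MCT libraries as lowest, median and highest except for C4BPA and C9. C3 and all other values given by library were chosen after they were seen. Of the further pathway genes, the 4 with the smallest p on each side are named, and C1QA, C1QB, C1QC and DAB2 were named after their values were seen. Sequences were not used here.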

Additional observations from a re-analysis of the deposited data

Results flagged for a closer look

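Of 88 groups of libraries examined, 5 contained 1 value well away from the others by Dixon's test, where chance alone would flag about 1 in 20 (4.4). PROS1 was at 588 CPM in SEFA-6179 replicate 2, against 343 to 410 CPM in the other SEFA-6179 libraries. F11 reached 348 CPM in MCT replicate 5 while its other MCT libraries lay at 137 to 185 CPM. For C4BPB, MCT replicate 3 had 144 CPM and the others 101 to 116 CPM. SERPINE2 was at 6.93 CPM in SEFA-6179 replicate 1, against 2.77 to 3.87 CPM, and at 10.5 CPM in MCT replicate 5, against 4.39 to 6.50 CPM.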

How the results depend on the processing

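The count of 0 members called, and of 0 further pathway genes called, held under all 18 alternatives, 11 of which left out 1 library, and no group ranges of members separated by deposited FPKM or with DESeq2 size factors. The median log2 fold change of the members ran from -0.0006 to 0.13. The median of the members spread by 0.191 between libraries. That value describes single libraries and is no measure of error for a difference between groups. Counts over all genes moved more, from 30 to 250 by DESeq2, 62 by limma, 1 when MCT replicate 5 and SEFA-6179 replicate 4 were both left out, and 0 to 53 with 1 library left out. The sign turned for 12 of the 30 members, none of which had a log2 fold change above 0.147 in size, and the cause was not tested. With both libraries left out it became 0.13 for PROC, 0.16 for F11, 0.0465 for KNG1, -0.003 for SERPINF2 and 0.18 for C2. By limma it became 0.16 for F11, 0.0013 for KNG1 and -0.0751 for SERPINF2. With 1 library left out, log2 fold changes ran from -0.17 to 0.0089 for F2, -0.007 to 0.20 for F10, -0.19 to 0.0669 for PROC, -0.19 to 0.23 for F11, -0.26 to 0.0864 for KLKB1, -0.21 to 0.10 for KNG1, -0.13 to 0.16 for SERPINF2, -0.19 to 0.12 for C2, -0.32 to 0.0781 for C3, -0.20 to 0.081 for C8A, -0.30 to 0.0368 for C8B and -0.0188 to 0.30 for C8G.

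Replicate numbers 1 to 5 are shared by both groups, but nothing in the labels says that they pair animals. Deviations of same-numbered libraries correlated between -0.149 and 0.202 across genes, and 1 of 5 libraries matched its own number best. With a replicate block over replicates 1 to 5, 0 members passed, the median log2 fold change was 0.01 and that of SERPINF2 turned to -0.0887. Over all genes the block gave 8 calls, against 40 in the same 10 libraries without it.

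Depth was lowest for C9, with 10 to 145 counts per library, and for TFPI, with 7 to 39.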

Other observations

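Ratios of genes within a library, by deposited FPKM, were computed after the values were seen and were not tested. The ratio of C6 to C7 was 5.11, 8.24, 9.36, 6.23 and 6.48 in SEFA-6179 replicates 1 to 5 and 4.10, 4.64, 4.32, 5.24, 2.21 and 2.88 in MCT replicates 1 to 6. SEFA-6179 replicate 1 was the only SEFA-6179 library within the MCT range. The ratio of F2 to SERPINC1, prothrombin to antithrombin, was 0.394 ± 0.0339 (SD, n = 5) with SEFA-6179 and 0.332 ± 0.0261 (SD, n = 6) with MCT, with ranges of 0.34 to 0.431 and 0.29 to 0.37. The ratio of F10 to F7 was 3.27 ± 0.612 (SD, n = 5) and 3.21 ± 0.187 (SD, n = 6). HRG, a neighbour of KNG1 at 4.9 kb, ranged from 444 to 3956 CPM over the 11 libraries, with the highest value in MCT replicate 5.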
